A study of Caenorhabditis elegans with 10 samples.

Results

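The genes described here encode the fatty acid elongation system of Caenorhabditis elegans: the elongases elo-1 to elo-9 and let-767, which encodes the ketoacyl-CoA reductase that works with them. A probe set belongs to the set if the array annotation gives it the symbol of any of these genes. Of the 10 genes, 9 have a probe set, 1 each, among the 22548 probe sets tested. No probe set carried the symbol elo-8, and that gene was not analysed here.

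RNA of adult animals was hybridised to 10 single-colour oligonucleotide arrays after a 3'-directed transcription step that added biotin. The groups were mek-1 mutants that were fasted (3 arrays) or fed (3 arrays) and mlk-1 mutants that were fasted (2 arrays) or fed (2 arrays). On adult day 2 all animals were moved to new plates, either without food (fasted) or with the bacterial strain OP50-1 (fed), and they were collected 2 days later, on adult day 4. Every group carries a mutation in a kinase gene of the same JNK-type MAP kinase cascade, in which MLK-1 acts upstream of MEK-1. The labels name the mutated gene without an allele. Wild-type animals were not analysed here. Nothing in the labels tells whether replicates were separate cultures; if they were not, every p reflects technical spread alone.

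Fatty acid chains are lengthened on the endoplasmic reticulum by a cycle of 4 reactions. An elongase condenses the acyl-CoA with malonyl-CoA, and a ketoacyl-CoA reductase, a dehydratase and an enoyl-CoA reductase then complete the step. The elongase sets which chains are lengthened, whereas the later enzymes are shared. In C. elegans ELO-1 and ELO-2 act on polyunsaturated and saturated straight chains, ELO-5 and ELO-6 make the monomethyl branched-chain fatty acids that the animal needs for growth, and elo-5 and elo-6 are known to be expressed in the gut. In the RefSeq annotation of assembly WBcel235, elo-1 and elo-7 are neighbouring protein-coding genes with 0 others between them, and 3 protein-coding genes lie between elo-5 and elo-6. The files name no genome build, so no coordinates are given.

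The deposited values are linear intensities that the authors summarised per probe set, and array medians lay between 70.5 and 74.9. Changes are given as log2 differences of intensity plus a constant of 16, which compresses changes of dim probe sets. The mek-1 probe set read 66.5 to 72.5 in mek-1 fasted and 119 to 139 in mek-1 fed arrays, against 1350 to 1387 in mlk-1 fasted and 1137 to 1138 in mlk-1 fed arrays. The mlk-1 transcript was not lower in the arrays labelled mlk-1. In fasted animals its 2 probe sets read 128 to 167 and 84.6 to 118 in mek-1 arrays, against 186 to 232 and 139 to 146 in mlk-1 arrays. In fed animals the ranges overlapped, at 149 to 197 and 117 to 156 in mek-1 arrays and 167 to 184 and 132 to 135 in mlk-1 arrays. Since neither the allele nor the place of the probes relative to the lesion is given, these values do not check the mlk-1 labels. Both mek-1 arrays numbered 3 stood apart on the second principal component, which held 19.7% of the variance: they lay at 30.9 (fasted) and 30.1 (fed), and the others between -23.8 and 10.5.

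The question was which steps of elongation responded to 2 days without food in these mutants. The transcript of elo-6, a branched-chain elongase, rose in fasted animals of both strains, and that of let-767 rose when the strains were averaged. No member fell past the threshold in the fit without a block. With the replicate number as a block elo-3 fell in mek-1 (-0.35, adjusted p = 0.0244, limma). The other members had mean changes from -0.13 (elo-3) to 0.45 (elo-2), none past the threshold. In limma, with Benjamini-Hochberg adjustment over all probe sets and a threshold of 0.05, 2 of 9 members were higher in the mean fasting effect, where 4.10% of all probe sets were called higher and 3.80% lower. With the replicate number as a block the count was 4, adding elo-1 and elo-2, where 20.0% of all probe sets were called in either direction. The members' median change was 0.32, beside 0.04 for all probe sets.

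**Figure D1:**
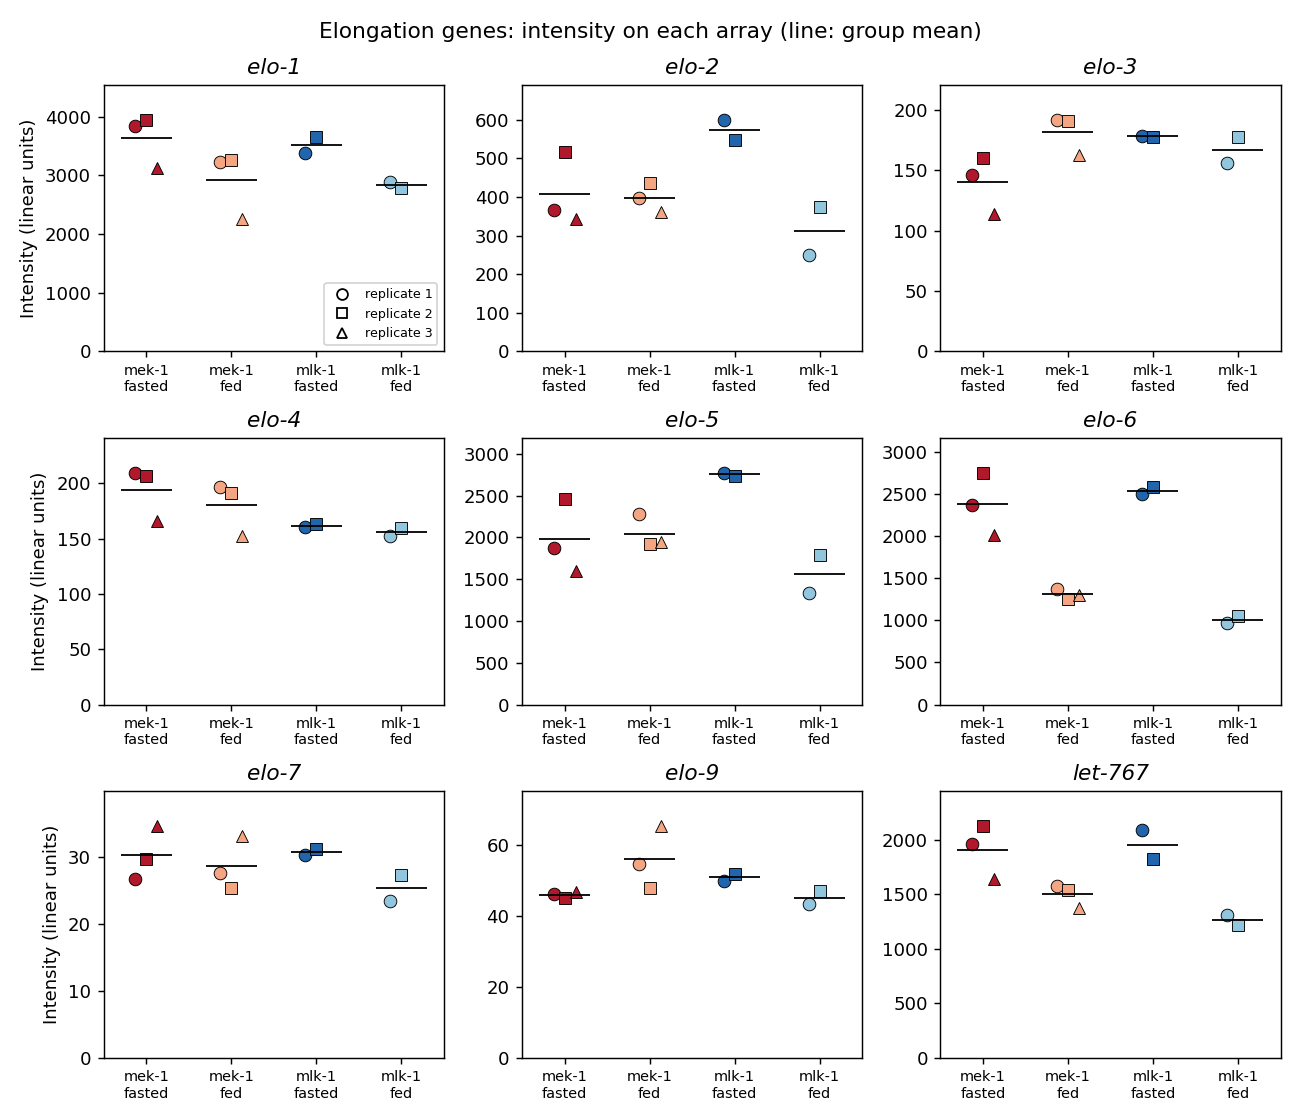
Intensity of the 9 measured elongation genes on each array (vertical axis, linear units, from 0; symbols mark the replicate number, lines the group mean). For elo-6 every fasted array lies above every fed array in both strains. For elo-1, elo-2, elo-4, elo-5 and elo-7 the groups part in mlk-1 and overlap in mek-1.

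Of the 9 members elo-6 had the largest fasting change. Its intensity was 2368, 2749 and 2016 in mek-1 fasted arrays, against 1377, 1251 and 1304 in mek-1 fed arrays. In mlk-1 it was 2498 and 2576 in fasted arrays, against 963 and 1051 in fed arrays. All fasted arrays of a strain were thus above all its fed arrays, and the lowest fasted value of any strain lay above the highest fed value. The mek-1 means were 2378 ± 367 fasted and 1311 ± 62.8 fed (SD, n = 3 each). The change was 0.84 ± 0.11 in mek-1 (log2, SE of limma's moderated fit, 3 against 3 arrays; 1.79-fold, adjusted p = 0.00347). The mlk-1 change was 1.32 ± 0.14 (2 against 2 arrays; 2.50-fold, adjusted p = 0.00212). Averaged over the strains the change was 1.08 ± 0.09 (adjusted p = 1.6e-04). The elo-6 call held in limma under each of the 19 alternatives tried for either strain and the 18 tried for the mean, with adjusted p of up to 0.0321.

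This rise ran opposite to the summed level of gut markers on the same arrays. The summed intensity of 13 intestine markers was 6326 to 9230.0 in mek-1 fasted arrays against 15600.3 to 20548 in mek-1 fed arrays, and 9145 to 9266 in mlk-1 fasted against 19771 to 23390 in mlk-1 fed arrays. Of these markers 8 fell and 0 rose in the mean fasting effect (median -0.83), where 3.80% of all probe sets were called lower. In mek-1 8 fell (median -1.18), where 3.23% of all probe sets were called lower. In mlk-1 3 fell (median -0.32), where 0.852% were. The sums weigh bright markers most: in mlk-1 the protease genes asp-1 and cpr-6 averaged 8866 and 5860 in fed arrays, against 2011 and 2966 in fasted arrays. The gut regulator elt-2 stood at -0.17 ± 0.12 in the mean fasting effect (adjusted p = 0.512, limma). In bulk RNA a smaller share of gut RNA and lower expression of the marker genes themselves cannot be told apart. The markers' part in the elongation results was not tested. Markers of the germline and oocytes, 9 in all, had 0 genes past the threshold and a median of 0.01. Their sums were 18999 to 25479 in mek-1 fasted against 17889 to 24089 in mek-1 fed arrays, and 21056 to 21717 in mlk-1 fasted against 20243 to 23247 in mlk-1 fed arrays. Of the markers of other tissues, 5 of 8 for body wall muscle and 1 of 8 for epidermis fell, 0 of 9 for early embryos did, and none of these rose.

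The reductase gene let-767 rose by less than elo-6 on average over the strains. Its intensity was 1957, 2125 and 1636 in mek-1 fasted arrays, against 1579, 1539 and 1377 in mek-1 fed arrays. In mlk-1 it was 2084 and 1824 in fasted arrays, against 1312 and 1221 in fed arrays. The fasted arrays lay above the fed ones in both strains. The mean change was 0.48 ± 0.09 (1.39-fold, adjusted p = 0.0130, limma), a call lost without mlk-1 fed 2 (0.45, adjusted p = 0.0560) and without mlk-1 fasted 1 (0.43, adjusted p = 0.0620). Within the strains the changes were 0.34 ± 0.11 in mek-1 (adjusted p = 0.142) and 0.62 ± 0.14 in mlk-1 (adjusted p = 0.0784). With the replicate number as a block they passed in limma, at adjusted p = 0.0231 and 0.0112.

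The remaining enzymes of the cycle are encoded by hpo-8, a predicted hydroxyacyl-CoA dehydratase, and art-1, an enoyl-CoA reductase homologue. Neither passed the threshold. The mean changes were 0.22 ± 0.09 for hpo-8 (adjusted p = 0.181, limma) and 0.27 ± 0.08 for art-1 (adjusted p = 0.0910).

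**Figure D2:**
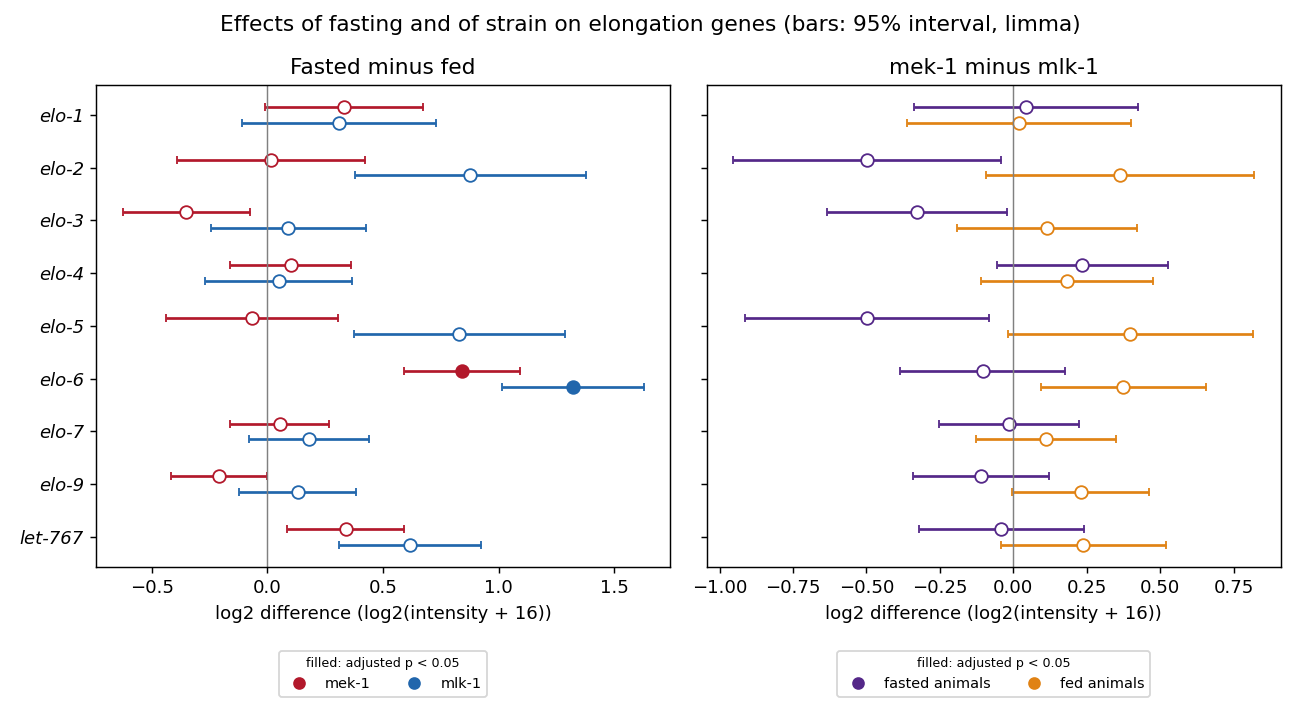
Log2 differences of the 9 elongation genes with 95% intervals from limma, for fasted minus fed in each strain (left) and for mek-1 minus mlk-1 under each food condition (right); filled points have an adjusted p under 0.05. Only elo-6 in the left panel is filled, at 0.84 in mek-1 and 1.32 in mlk-1.

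The straight-chain elongase elo-2 and the branched-chain elongase elo-5 were higher in fasted mlk-1 arrays, and their mek-1 groups overlapped. The same held for elo-1, elo-4 and elo-7, with smaller mlk-1 changes (0.31, 0.05 and 0.18). In mlk-1 28.9% of all probe sets were higher in every fasted array than in every fed array. For elo-5 the intensity was 2773 and 2739 in mlk-1 fasted arrays, against 1335 and 1786 in mlk-1 fed arrays. In mek-1 it was 1870.0, 2459 and 1603 fasted, against 2275, 1924 and 1942 fed. The elo-5 change was 0.83 ± 0.20 in mlk-1 (adjusted p = 0.107) and -0.07 ± 0.16 in mek-1 (adjusted p = 0.890, limma). With the replicate block the mlk-1 value passed (adjusted p = 0.0394).

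For elo-2 the intensity was 600.2 and 549 in mlk-1 fasted arrays, against 249 and 374 in mlk-1 fed arrays. In mek-1 it was 365, 517 and 343 fasted, against 398, 436 and 362 fed. The elo-2 change was 0.88 ± 0.22 in mlk-1 (adjusted p = 0.119) and 0.02 ± 0.18 in mek-1 (adjusted p = 0.981, limma). With the replicate block the mlk-1 value passed (adjusted p = 0.0273), as did the mean of 0.45 (adjusted p = 0.0257). The array mlk-1 fed 1 was the lowest of the 10 for both genes, and on the first principal component it lay at 10.9, nearer to the fasted arrays than mlk-1 fed 2 at 24.1. Without it the mlk-1 changes were 0.62 for elo-5 and 0.60 for elo-2.

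The polyunsaturated fatty acid elongase elo-1 was brightly detected in every group. Its intensity was 3841, 3950.5 and 3134 in mek-1 fasted arrays, against 3238, 3259 and 2251 in mek-1 fed arrays. In mlk-1 the intensity was 3389 and 3650.5 fasted, against 2896 and 2778 fed. The number 3 arrays of mek-1 were the lowest of their groups, so the mek-1 groups overlapped although each fasted array exceeded the fed array of its number. The mean change was 0.32 ± 0.12 (adjusted p = 0.150, limma), with 0.33 ± 0.15 in mek-1 and 0.31 ± 0.18 in mlk-1. It passed in limma with the replicate block (adjusted p = 0.0113 for the mean and 0.0305 in mek-1) and without both mek-1 arrays numbered 3 (0.28, adjusted p = 0.0219).

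Within the replicate numbers, 5 of 5 fasted arrays exceeded the fed arrays of their number for elo-1, elo-4, elo-6 and let-767. The share of all probe sets with that pattern was not computed, so the count of members cannot be weighed against it. Of all probe sets 61.9% had a positive mean fasting effect. The differences ran from 0.62 to 1.36 for elo-6, from 0.25 to 0.66 for let-767, from 0.23 to 0.47 for elo-1 and from 0.03 to 0.11 for elo-4. For elo-2 and elo-5 both mlk-1 numbers were positive (0.54 and 1.22 for elo-2, 0.61 and 1.05 for elo-5). Of the 3 mek-1 numbers only number 2 was, at 0.24 and 0.35.

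**Figure D3:**
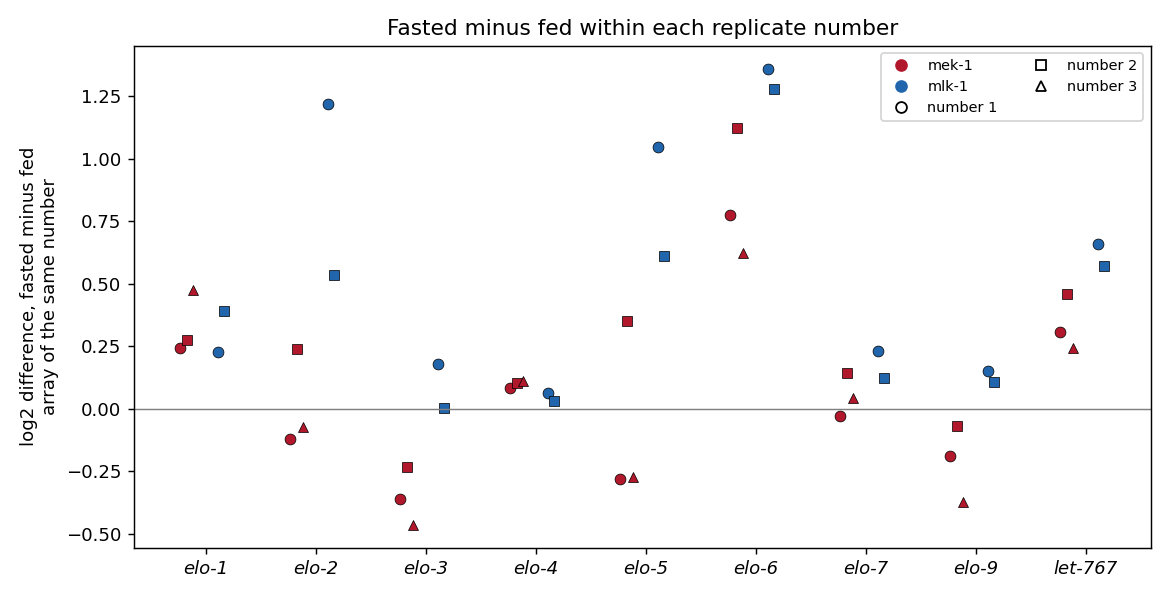
Log2 difference between the fasted and the fed array of the same strain and replicate number (vertical axis) for each elongation gene; colour gives the strain and symbol the number. The elo-6 differences (0.62 to 1.36) are the largest in each of the 5 strain and number combinations, let-767 is above 0 in all 5, and elo-3 and elo-9 lie below 0 in mek-1 and above 0 in mlk-1.

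The remaining elongases, elo-3, elo-4, elo-7 and elo-9, had smaller mean changes, none past the threshold. For elo-3 the intensity was 146, 160.3 and 114 in mek-1 fasted arrays, against 192, 191 and 163 in mek-1 fed arrays, and all fasted values lay below all fed values. In mlk-1 it was 178.5 and 178.0 fasted, against 156 and 177.7 fed. The elo-3 change was -0.35 ± 0.12 in mek-1 (adjusted p = 0.159, and 0.0244 with the replicate block) and 0.09 ± 0.15 in mlk-1 (adjusted p = 0.903, limma). For elo-4 the intensity was 209, 207 and 166 in mek-1 fasted arrays against 196, 191 and 152 in mek-1 fed arrays. The mlk-1 values were 160.1 and 163 fasted, against 153 and 159 fed. The elo-4 groups overlapped in mek-1 and lay close together in mlk-1, with a mean fasting change of 0.07 ± 0.09 (95% interval -0.13 to 0.28).

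Of the dim members, elo-7 read 23.4 to 34.6 and elo-9 read 43.3 to 65.3, below the array median on all 10 arrays. Signal at that level limits what can be seen: the mean changes were 0.12 ± 0.07 for elo-7 and -0.04 ± 0.07 for elo-9. For elo-7 the intensity was 26.7, 29.7 and 34.6 in mek-1 fasted arrays against 27.6, 25.4 and 33.1 in mek-1 fed arrays, which overlapped. In mlk-1 it was 30.3 and 31.1 fasted, against 23.4 and 27.2 fed. The elo-9 groups parted in opposite directions in the strains, with the fasted arrays lower in mek-1 and higher in mlk-1. For elo-9 the intensity was 46.1, 45.0 and 46.7 in mek-1 fasted arrays, against 54.6, 47.9 and 65.3 in mek-1 fed arrays. The mlk-1 values were 49.9 and 51.9 fasted, against 43.3 and 46.9 fed.

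The second question was whether fasting acted differently in the strains. In mlk-1 all 9 members were higher in every fasted array than in every fed array, where 28.9% of all probe sets were. In mek-1 elo-6 and let-767 were (12.7% of all probe sets), and elo-3 and elo-9 were lower in every fasted array (8.88%). By the adjusted test 1 of 9 members, elo-6, was called in each strain, beside 4.54% of probe sets in mek-1 and 1.37% in mlk-1. With the replicate block 4 members passed in each strain: elo-1, elo-3, elo-6 and let-767 in mek-1, and elo-2, elo-5, elo-6 and let-767 in mlk-1. The block called 14.5% of all probe sets in mek-1 and 5.84% in mlk-1. The signed difference of the fasting effects, mek-1 minus mlk-1, was negative for 7 of 9 members and for 50.7% of all probe sets. For elo-3 and elo-9 the mek-1 effect was of opposite sign and larger in size. The members' median difference was -0.34, beside 0.00 (-0.00284) for all probe sets. Tissue markers had medians of -0.40 for intestine, -0.71 for body wall muscle, -0.27 for epidermis and -0.10 for early embryos. The median for germline and oocytes had the other sign, at 0.12. Of all these markers 0 were called, and their part in the members' values was not tested.

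Tested directly, 0 of 9 members passed for that difference (adjusted p from 0.903, limma), where 0.0754% of probe sets did. At an unadjusted p under 0.05 there were 5 (elo-2, elo-3, elo-5, elo-6 and elo-9), where 3.74% of all probe sets were. The differences, mek-1 minus mlk-1, were -0.90 ± 0.26 for elo-5 (95% interval -1.49 to -0.31), -0.86 ± 0.28 for elo-2 (-1.51 to -0.22) and -0.48 ± 0.17 for elo-6 (-0.88 to -0.08). For elo-1 the difference was 0.02 ± 0.24, with an interval of -0.52 to 0.56. These members share arrays and are not independent of each other, and a difference of the strains was shown for none of them after adjustment.

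Between the strains, 0 of 9 members passed in fasted animals, in fed animals or on average (limma), where 1.46%, 0.603% and 3.05% of all probe sets did. At an unadjusted p under 0.05 there were 3, 1 and 1, where 10.8%, 8.46% and 14.0% of all probe sets were. In fasted animals 4 members (elo-2, elo-3, elo-5 and elo-9) were lower in every mek-1 array than in every mlk-1 array, where 16.8% of all probe sets were. The reverse held for elo-4 and for 12.7% of all probe sets. The elo-5 and elo-2 differences were -0.50 ± 0.18 and -0.50 ± 0.20 on the log2 scale. On the same arrays the intestine markers had a median of -0.44, and 3 of 13 were called lower in mek-1. The other marker medians were 0.21 for epidermis, 0.14 for body wall muscle, 0.04 for germline and oocytes and -0.17 for early embryos, with 0 called. Among fed animals 4 members (elo-5, elo-6, elo-9 and let-767) were higher in every mek-1 array, where 9.88% of all probe sets were. All 9 fed differences were positive, as were 49.2% of all probe sets, from 0.02 (elo-1) to 0.40 ± 0.18 (elo-5), and elo-6 stood at 0.37 ± 0.12 (adjusted p = 0.345). In fed animals the markers had medians of 0.86 for body wall muscle, 0.54 for epidermis, -0.04 for intestine, -0.09 for germline and oocytes and -0.07 for early embryos, with 0 called. The markers' part in these strain differences was not tested. For elo-4 the mean strain difference was 0.21 ± 0.09 (adjusted p = 0.350). With the replicate block elo-4 passed, at 0.31 on average (adjusted p = 0.0136, limma) and 0.34 in fasted animals (adjusted p = 0.0397), where 6.67% and 4.58% of all probe sets did. Number 3 exists in mek-1 alone, and the mean of 0.31 was also the value without both mek-1 arrays numbered 3. These 2 settings are therefore not separate checks of that mean.

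Over the 10 arrays the levels of elo-2 and elo-5 correlated at r = 0.95 and those of elo-6 and let-767 at r = 0.94 (Pearson, log2 scale). These are descriptions: the points share arrays and the contrast of food. After the group means were taken out, r was 0.87 for elo-2 with elo-5, 0.93 for elo-5 with elo-6 and 0.65 for elo-6 with let-767. High values were not particular to these pairs: elo-1 with elo-4 stood at 0.95 and elo-3 with elo-4 at 0.90, and elo-1 with elo-7 at -0.85. Among 9771 other genes with a mean above 64 in at least 1 group, those most like elo-6 were dpy-23, an adaptor subunit of endocytosis (0.97), F49C12.11 (0.96) and sel-1, a component of endoplasmic reticulum protein degradation (0.96). Those most like let-767 were F43G6.7 (0.97), taf-3 (0.97) and spr-2 (0.95).

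**Figure D4:**
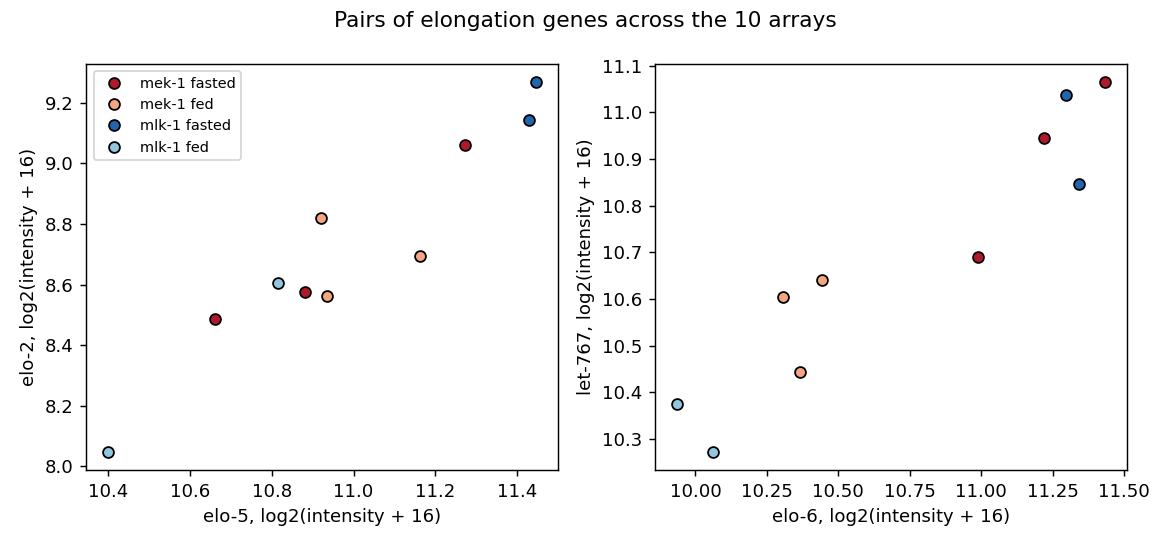
Levels of elo-2 against elo-5 (left) and of let-767 against elo-6 (right) on the 10 arrays, as log2(intensity + 16), coloured by group. In the left panel both mlk-1 fasted arrays are at the top and the mek-1 groups mix; in the right panel all fasted arrays lie to the right of all fed arrays.

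Of the genes of connected steps, few passed the threshold in the mean fasting effect and those that did fell. In that effect 3.80% of all probe sets were called lower and 4.10% higher. Of 6 genes that supply or activate branched-chain precursors, acs-1 and bcat-1 fell and 0 rose in the mean fasting effect. The list's median was -0.02, beside 0.04 for all probe sets. The acyl-CoA synthetase acs-1, which activates branched-chain fatty acids, read 359, 389 and 393 in mek-1 fasted arrays, against 1333, 1319 and 1569 in mek-1 fed arrays. In mlk-1 it read 258 and 335 fasted, against 353 and 951 fed, so mlk-1 fed 1 was far below mlk-1 fed 2.

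The mean change of acs-1 was -1.39 ± 0.23 (adjusted p = 0.00795, limma). Within the strains it was -1.84 ± 0.29 in mek-1 (adjusted p = 0.00913) and -0.94 ± 0.36 in mlk-1 (adjusted p = 0.316, limma). Without mlk-1 fed 1 the mlk-1 value was -1.64. The branched-chain amino acid transaminase bcat-1 stood at -1.003 ± 0.15 (adjusted p = 0.00491). Its changes were -1.15 ± 0.19 in mek-1 (adjusted p = 0.0106) and -0.85 ± 0.23 in mlk-1 (adjusted p = 0.148, limma). On the same arrays elo-6, which lengthens branched chains, rose.

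Of 9 genes of sphingolipid synthesis, which in C. elegans uses branched-chain acids for the sphingoid base, sptl-2, a serine palmitoyltransferase subunit, fell (-0.80 ± 0.10, adjusted p = 0.00236, limma) and 0 rose. The list's median was 0.01. The intensity of sptl-2 was 76.1, 79.6 and 54.5 in mek-1 fasted arrays, against 189, 165 and 161 in mek-1 fed arrays, and 93.7 and 79.7 in mlk-1 fasted against 115 and 137 in mlk-1 fed arrays. Its groups parted in both strains, with changes of -1.13 ± 0.13 in mek-1 (adjusted p = 0.00177) and -0.47 ± 0.16 in mlk-1 (adjusted p = 0.262, limma).

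Of 3 delta-9 desaturases, which add the first double bond, fat-7 fell (-1.51 ± 0.27, adjusted p = 0.0108, limma), but leaving out mlk-1 fasted 1 ended that call (adjusted p = 0.0535). By strain fat-7 stood at -1.76 ± 0.34 in mek-1 (adjusted p = 0.0217) and -1.26 ± 0.41 in mlk-1 (adjusted p = 0.238, limma). The list's median was 0.01. None of the 4 desaturases of polyunsaturated chains, fat-1 to fat-4 (median -0.04), and none of the 4 genes of fatty acid synthesis (median 0.09) passed. The same held for the 9 measured regulators of lipid genes (median 0.08), among them sbp-1, the SREBP homologue, at 0.14 ± 0.10, and the nuclear receptor nhr-49 at 0.19 ± 0.09. In mek-1 alone the nuclear receptor nhr-80, named because it was the only regulator to pass there, stood at -0.43 ± 0.10 (adjusted p = 0.0441, limma).

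**Figure D5:**
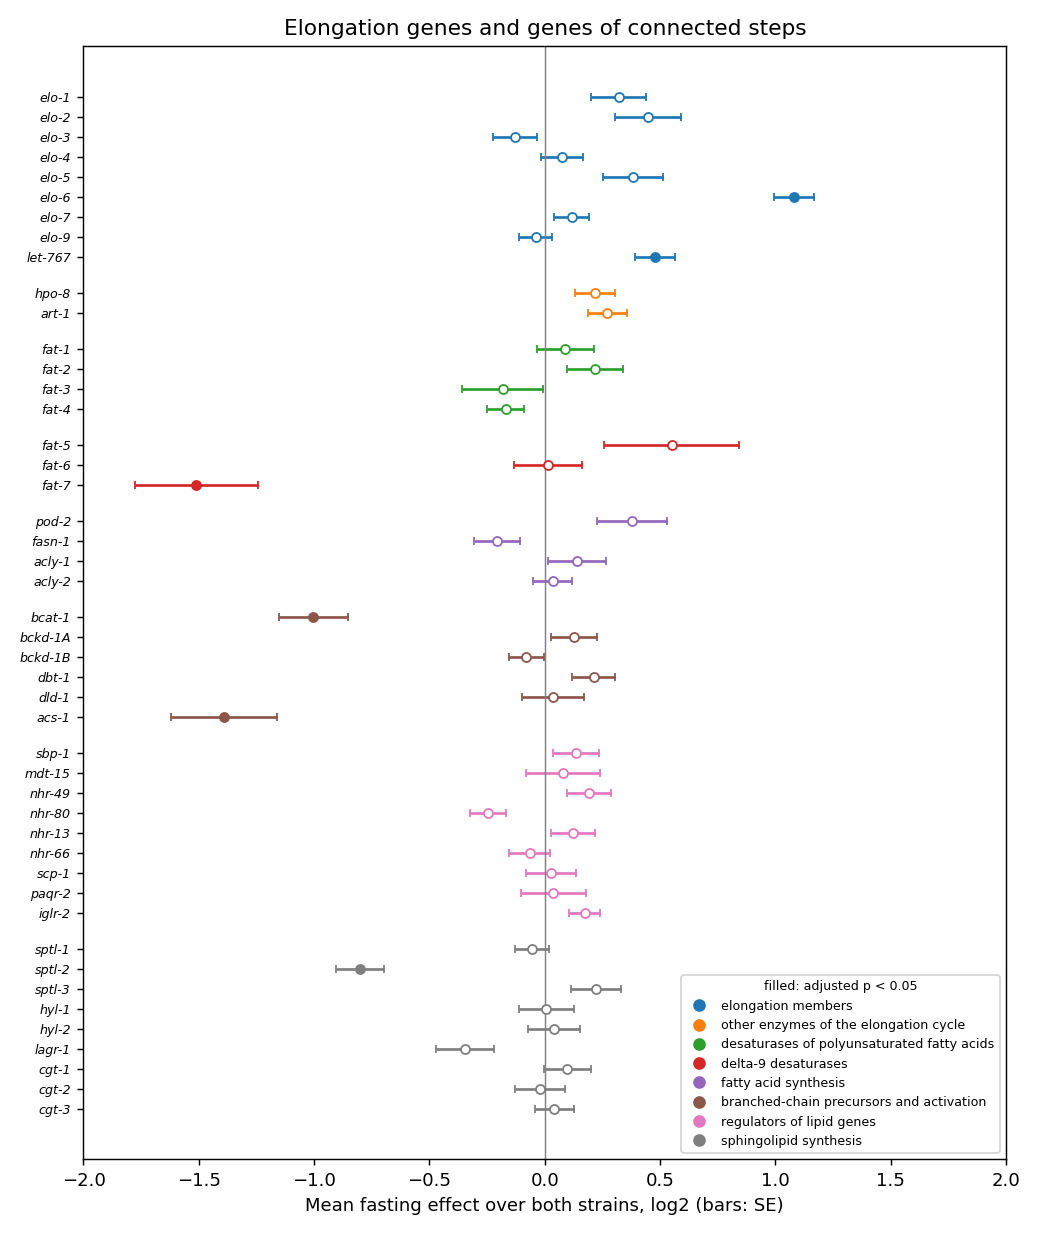
Mean fasting effect over both strains (log2, horizontal axis, bars SE) for the 9 elongation genes and for genes of connected steps, coloured by list; filled points have an adjusted p under 0.05. The filled points to the right of 0 are elo-6 (1.08) and let-767 (0.48), and those to the left are fat-7, acs-1, bcat-1 and sptl-2.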

How the data were processed

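The deposited table holds 1 linear intensity per probe set and array, summarised and normalized by the authors with a method not given in the sources used here. It has 22625 probe sets, of which 77 array controls were left out. Symbols came from the array annotation, and 0 columns lacked a sample. The small number of arrays sets the precision. A model of the 4 group means was fitted to log2(value + 16) over the 10 arrays (limma 3.58.1, lmFit then eBayes, under R 4.3.3), with 7 contrasts of food and strain and Benjamini-Hochberg adjustment over all 22548 probe sets. The method was tested on simulated data with known changes. The simulated noise was independent between arrays, so that test does not cover arrays that vary together. Alternatives were other constants, quantile normalization, a filter on dim probe sets, array weights, a trended variance, the compared groups alone, the replicate block, and arrays left out. The members and gene lists were chosen with earlier results of these data known. All members are named; members of the lists of connected steps are named where they passed in the mean fasting effect or the mean strain difference (up to 4 a list), tissue markers are given by counts and medians, and likeness takes the 3 genes with the highest correlation for each called member. The genes hpo-8, art-1, elt-2, asp-1, cpr-6, sbp-1, nhr-49 and nhr-80 fall outside this rule and were named after their values were seen. For lists, the brightest probe set with 1 symbol stands for a gene.

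Whether equal replicate numbers pair arrays was checked by correlating deviations from group means over probe sets. The coefficients between fasted and fed arrays were 0.440, 0.675 and 0.573 for mek-1 numbers 1, 2 and 3, and 0.352 for mlk-1, where 2 arrays per group give both numbers the same value. Between the strains the values were 0.326 and 0.157 in fasted and 0.298 and 0.150 in fed animals. With 2 mlk-1 arrays per group, the unequal numbers must give the same values with the opposite sign. Number 3 of mek-1 has no mlk-1 partner, so these values cannot establish pairing across the strains. The main fit had no block and did not pair arrays. Among the fits, equal numbers were treated as pairing arrays only in the alternative with the replicate block. The differences within replicate numbers also matched fasted and fed arrays by number, a pairing that the labels do not state. The block was the number within each strain for fasting and the number shared by the strains for strain differences. The probe sets of elo-5, elo-6 and let-767 end in _s_at and may detect several transcripts. Plots used matplotlib 3.10.9 (Python 3.11.15).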

Additional observations from a re-analysis of the deposited data

Results flagged for a closer look

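For elo-3 and elo-9 every fasted array lay below every fed array in mek-1 and above every fed array in mlk-1. The fasting effects differed by -0.44 ± 0.19 for elo-3 and by -0.34 ± 0.14 for elo-9 (log2, mek-1 minus mlk-1, SE; unadjusted p = 0.0466 and 0.0442, adjusted p = 1.00 for each in limma), so neither passed the test of the difference. The mlk-1 ranges nearly met for elo-3, at 178.0 in the lower fasted and 177.7 in the higher fed array, and elo-9 was dim on all arrays.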

How the results depend on the processing

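The replicate block raised the number of members past the threshold to 4 in mek-1, 4 in mlk-1 and 4 on average (1, 1 and 2 without it), and to 1 for the strain difference in fasted animals and on average (0 without it); it changed no other member's call. It raised the calls over all probe sets too: to 3272 in mek-1, 1316 in mlk-1 and 4502 on average (1023, 309 and 1781 without it), and to 1033 for the strain difference in fasted animals and 1503 on average (330 and 687 without it). In mlk-1 the number of members was 2 with array weights and without both mek-1 arrays numbered 3, and 1 to 2 when single arrays were left out (2 without mek-1 fasted 3). On average it was 1 to 2 when single arrays were left out, and 1 mean strain difference passed without both number 3 arrays. The filter on the dimmest 30% of probe sets left out elo-7. Quantile normalization, log2 without a constant, a constant of 64, a trended variance and the compared groups alone (not run for means and differences) moved no count of members by over 1.5 times. Signs turned only for values past no threshold. Without both number 3 arrays these were elo-1 in the difference of fasting effects (-0.048), elo-5 in mek-1 (0.035), elo-9 on average (0.0017), the strain differences in fasted animals of elo-6 (0.0081) and let-767 (0.064), and the mean strain differences of elo-2 (0.021), elo-5 (0.037) and elo-7 (-0.020). With array weights they were elo-1 in the difference (-0.036), elo-2 in mek-1 (-0.063) and the mean strain difference of elo-7 (-0.0038). With the replicate block they were the mean strain differences of elo-2 (0.021), elo-5 (0.037) and elo-7 (-0.020) and that of let-767 in fasted animals (0.041). For mean strain differences the block gave the same estimates as leaving out both number 3 arrays, which have no mlk-1 partner. When single arrays were left out, the ranges that crossed 0 in mek-1 were those of elo-2 (-0.16 to 0.12), elo-4 (-0.0059 to 0.20), elo-5 (-0.24 to 0.071) and elo-7 (-0.013 to 0.12). On average it was elo-9 (-0.080 to 0.0064), and in the difference elo-1 (-0.15 to 0.13), elo-4 (-0.054 to 0.15) and bcat-1 (-0.71 to 0.11). Among strain differences they were elo-1 (-0.020 to 0.15 fasted, -0.071 to 0.195 fed, -0.014 to 0.12 mean), elo-2 mean (-0.21 to 0.073), elo-5 mean (-0.15 to 0.054), elo-6 fasted (-0.21 to 0.0081), elo-7 fasted (-0.081 to 0.041) and let-767 fasted (-0.14 to 0.064). In mlk-1 alone the block also called acs-1 (adjusted p = 0.0469), bcat-1 (0.0296) and fat-7 (0.0210) in limma. The cause of these shifts was not tested, and dim signal limits what elo-7 and elo-9 can show.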
